A study of Mus musculus with 20 samples.

Results

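The genes described here were the 9 genes that code for the enzymes setting, oxidising and removing DNA methylation: *Tdg*, *Mbd4*, *Tet1*, *Tet2*, *Tet3*, *Dnmt1*, *Dnmt3a*, *Dnmt3b* and *Uhrf1*. They were chosen by name, as 9 of the 37273 genes of the annotation on the assembled chromosomes, and no measured value entered the choice. For each gene the window was the gene body plus 5 kb on each side in the mouse build NCBIM37 (mm9), which gave 591 kb in all, and the measurement was the part of that window under peaks of 5-formylcytosine (5fC). The peaks came from a chemical pull-down of 5fC from the genomic DNA of dissected mouse embryo tissues at embryonic day 11.5 (E11.5), sequenced and called separately in every library. The groups were WT and *Tdg* null embryos. The null allele lacks the part of *Tdg* coding for the catalytic domain, with a neomycin resistance cassette in its place. It is a germline deletion, so all cells of a null embryo carried it, and null and WT embryos came from crosses of heterozygotes and were paired by litter. Hindbrain was taken from 1 null and 1 WT embryo of each of the 4 litters A, O, Q and Z. Heart, liver and carcass came from 2 further litters, here called a and b, with 1 null and 1 WT embryo each, so the libraries of these tissues share embryos. Of 20 libraries, 19 were used, 9 null and 10 WT. The null liver of litter b was set aside because it held 228 peaks in the whole genome, and it had 0 peaks in the 9 windows. Since the DNA came from whole tissues, more cells with 5fC at a site and more 5fC per cell cannot be told apart.

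DNMT3A and DNMT3B place methyl groups on unmethylated cytosines, mostly at CpG sites, and DNMT1, brought to replicating DNA by UHRF1, copies existing methylation onto the new strand. The TET enzymes TET1, TET2 and TET3 oxidise 5-methylcytosine first to 5-hydroxymethylcytosine and then to 5fC and 5-carboxylcytosine. TDG cuts out 5fC and 5-carboxylcytosine, after which base excision repair puts back an unmodified cytosine. MBD4 is another glycosylase, which acts on thymine opposite guanine at methylated CpG sites. Cells without TDG accumulate 5fC, which makes its positions easier to map, here on the genes of the enzymes themselves.

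4 short pieces of sequence show what lay under the peaks that were shared most widely, because they are the places where the 5fC of these genes was found again and again. For *Uhrf1*, *Tet1* and *Tet3* the piece is from the part of a stretch that lay under peaks of 9 of 9 null libraries, and for *Tdg* it is the part of its most shared stretch under peaks of 7 of 9. All are from the plus strand of NCBIM37, 5′ to 3′, with each CpG in capitals.
Uhrf1, upstream, chr17:56442051-56442350: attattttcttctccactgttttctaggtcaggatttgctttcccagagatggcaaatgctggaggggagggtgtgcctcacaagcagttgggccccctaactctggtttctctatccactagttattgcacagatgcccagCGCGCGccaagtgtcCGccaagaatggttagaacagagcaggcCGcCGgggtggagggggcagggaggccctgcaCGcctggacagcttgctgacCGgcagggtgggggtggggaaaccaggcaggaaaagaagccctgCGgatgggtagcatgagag
Tet1, intron, chr10:62329351-62329650: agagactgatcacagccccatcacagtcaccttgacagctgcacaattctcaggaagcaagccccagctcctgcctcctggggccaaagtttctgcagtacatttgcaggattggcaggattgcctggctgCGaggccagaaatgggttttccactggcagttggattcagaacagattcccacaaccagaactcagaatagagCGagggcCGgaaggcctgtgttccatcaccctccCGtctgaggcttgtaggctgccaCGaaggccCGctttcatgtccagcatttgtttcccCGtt
Tet3, intron, chr6:83368401-83368700: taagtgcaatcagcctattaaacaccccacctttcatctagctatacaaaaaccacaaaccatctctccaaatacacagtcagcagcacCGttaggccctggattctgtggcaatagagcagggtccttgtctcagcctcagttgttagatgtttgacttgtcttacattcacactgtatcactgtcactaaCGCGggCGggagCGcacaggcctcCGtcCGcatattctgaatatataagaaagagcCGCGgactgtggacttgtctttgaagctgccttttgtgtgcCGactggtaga
Tdg, coding exon and intron, chr10:82110001-82110200: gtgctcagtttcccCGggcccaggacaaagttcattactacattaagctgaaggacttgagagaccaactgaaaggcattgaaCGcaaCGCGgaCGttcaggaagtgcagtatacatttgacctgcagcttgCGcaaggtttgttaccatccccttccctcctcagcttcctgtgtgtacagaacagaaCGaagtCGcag
The *Tdg* piece starts inside the coding exon at chr10:82109967-82110138 and runs into the intron after it, over bases that another transcript has as exon. It held 8 CpGs in 200 bp, and of the pieces of 300 bp that of *Tet3* held 10, that of *Uhrf1* 9 and that of *Tet1* 7. These pieces do not stand for all widely shared stretches, which were not all rich in CpGs.

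Null libraries held far more peaks than WT libraries over the whole genome, and this bears on every value below. In null tissue the peaks covered between 2.68% of the genome (hindbrain, litter O) and 8.09% (heart, litter a), and in WT tissue between 0.0349% (hindbrain, litter Z) and 0.939% (carcass, litter a). The deposited peak lists give positions with no heights or read counts, so the read depth is unknown, and a value of 0 means that no peak was called in the window, not that 5fC was absent. Over the 9 windows the 9 null libraries together had 521 peaks, between 39 and 106 per library, and the 10 WT libraries had 41, between 0 and 12. A peak lay in the window in all 9 null libraries for 7 of the 9 genes, against 31.1% of all genes, and in at least 1 WT library for 8 of 9, against 44.7% of all genes. The windows of these genes were longer than most, with a median of 55.7 kb against 15.4 kb over all genes, and the part of window length in these counts was not tested.

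*Tdg* itself (ENSMUSG00000034674.11, chr10:82092573-82113544, plus strand) had few peaks. In null hindbrain its window was covered to 4.20% in litter A, 0% in litter O, 2.91% in litter Q and 2.26% in litter Z, and in all 4 WT hindbrain libraries it was at 0%. Null heart was the most covered tissue, at 11.0% in litter a and 7.10% in litter b, with both WT hearts at 0%. Null liver was at 4.20%, and the null carcasses at 2.91% and 5.17%. In WT tissue 3 libraries had a *Tdg* peak, the liver of litter a at 1.94% and the carcasses of litters a and b at 0.646% and 1.29%, so null and WT did not overlap in hindbrain except at the 0% of litter O. The deleted sequence could not be checked from the peaks. The longest run without a peak in the *Tdg* window, 11.6 kb at chr10:82098101-82109700, holds coding exons from base 82101446 to base 82107454. It was free of peaks in WT libraries too, but these had only 3 peaks in the whole window, so this cannot bear on the deletion. The window includes the deleted sequence, where null embryos could give no peak, and the null percentages of *Tdg* were not corrected for it.

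*Mbd4* (ENSMUSG00000030322.6, chr6:115790715-115803389, minus strand), the other glycosylase, had the lowest mean coverage of the 9 genes in null hindbrain, liver and carcass, but not in null heart. Among null hindbrains it had a single peak, covering 2.21% of the window in litter Z, and it was at 0% in litters A, O and Q and in every WT hindbrain. Both null hearts had peaks, at 9.26% and 4.85%, null liver had none, and of the null carcasses that of litter a was at 2.21% and that of litter b at 0%. The only WT peak was in the heart of litter a, at 2.65%. Of the 5 stretches with a peak in any library, 2 lay over *Ift122*, which starts near *Mbd4* and runs the other way, so part of the *Mbd4* values belongs to its neighbour.

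Among the TET genes *Tet3* (ENSMUSG00000034832.8, chr6:83312367-83391672, minus strand) was the most covered in every null tissue. Its window was under peaks to 6.38%, 8.40%, 7.61% and 9.29% in null hindbrain of litters A, O, Q and Z, and to 0.560%, 0.560%, 1.57% and 0% in the WT hindbrains of the same litters. Null hearts reached 23.1% and 19.2%, null carcasses 12.0% and 15.2%, and null liver 7.47%. WT liver of litter a was at 1.46% and the WT carcasses at 1.34% and 0.448%, and both WT hearts were at 0%. Every null library was thus above every WT library of the gene.

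*Tet1* (ENSMUSG00000047146.8, chr10:62267318-62361866, minus strand) and *Tet2* (ENSMUSG00000040943.7, chr3:133126643-133207354, minus strand) were both less covered than *Tet3* in every null library. *Tet1* was at 4.50%, 2.77%, 4.02% and 4.40% in the null hindbrains, at 8.80% and 5.45% in the null hearts, at 4.30% and 6.79% in the null carcasses and at 3.44% in null liver. Its 10 WT libraries lay between 0% and 0.670%. *Tet2* was at 2.98%, 3.42%, 3.86% and 3.86% in the null hindbrains, and its 2 null hearts lay far apart, at 10.4% and 2.43%. The null carcasses were at 3.31% and 6.61% and null liver at 1.65%. *Tet2* had the most WT peaks of the 9 genes, 12, with the WT carcasses at 1.54% and 1.43% and the WT hindbrains of litters O and Q at 0.882% and 1.10%. In liver and in the less covered heart the *Tet2* null values were therefore close to those of WT carcass.

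Of the methyltransferase genes *Dnmt3a* (ENSMUSG00000020661.9, chr12:3806007-3914443, plus strand) had the most peaks, 180 over the 9 null libraries. It was under peaks to 10.1%, 10.1%, 8.95% and 8.11% in the null hindbrains, 35.1% and 17.1% in the null hearts, 13.7% and 21.1% in the null carcasses and 14.5% in null liver. WT values were 0.760% in the hindbrain of litter Q, 0.591% and 1.44% in the carcasses, and 0% in the other 7 libraries. No WT library came near a null one. *Dnmt3b* (ENSMUSG00000027478.9, chr2:153475186-153513466, plus strand), its close relative, was at 2.69%, 3.94%, 5.59% and 5.39% in the null hindbrains, 9.53% and 5.80% in the null hearts, 5.39% and 6.21% in the null carcasses and 1.45% in null liver. Its WT carcass of litter a, at 1.86%, was above the null liver.

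*Dnmt1* (ENSMUSG00000004099.8, chr9:20711650-20757317, minus strand), the maintenance methyltransferase gene, was the only one of the 9 with no peak in any of the 10 WT libraries. Its null hindbrains were at 3.86%, 2.61%, 2.07% and 1.53%, the null hearts at 7.64% and 4.58%, the null carcasses at 1.62% and 2.34% and null liver at 2.69%. *Uhrf1* (ENSMUSG00000001228.8, chr17:56442744-56462909, plus strand), which codes for the partner of DNMT1, showed another order of tissues. The null hindbrains were at 11.9%, 12.3%, 14.6% and 10.6%, the null carcasses at 9.94% and 10.9%, the null hearts at 8.29% and 7.62% and null liver at 6.30%. Its only WT peak, in the liver of litter a, covered 3.65%. Null heart had the highest mean percentage of the 4 tissues for the other 8 genes and was below hindbrain and carcass for *Uhrf1*.

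**Figure D1:**
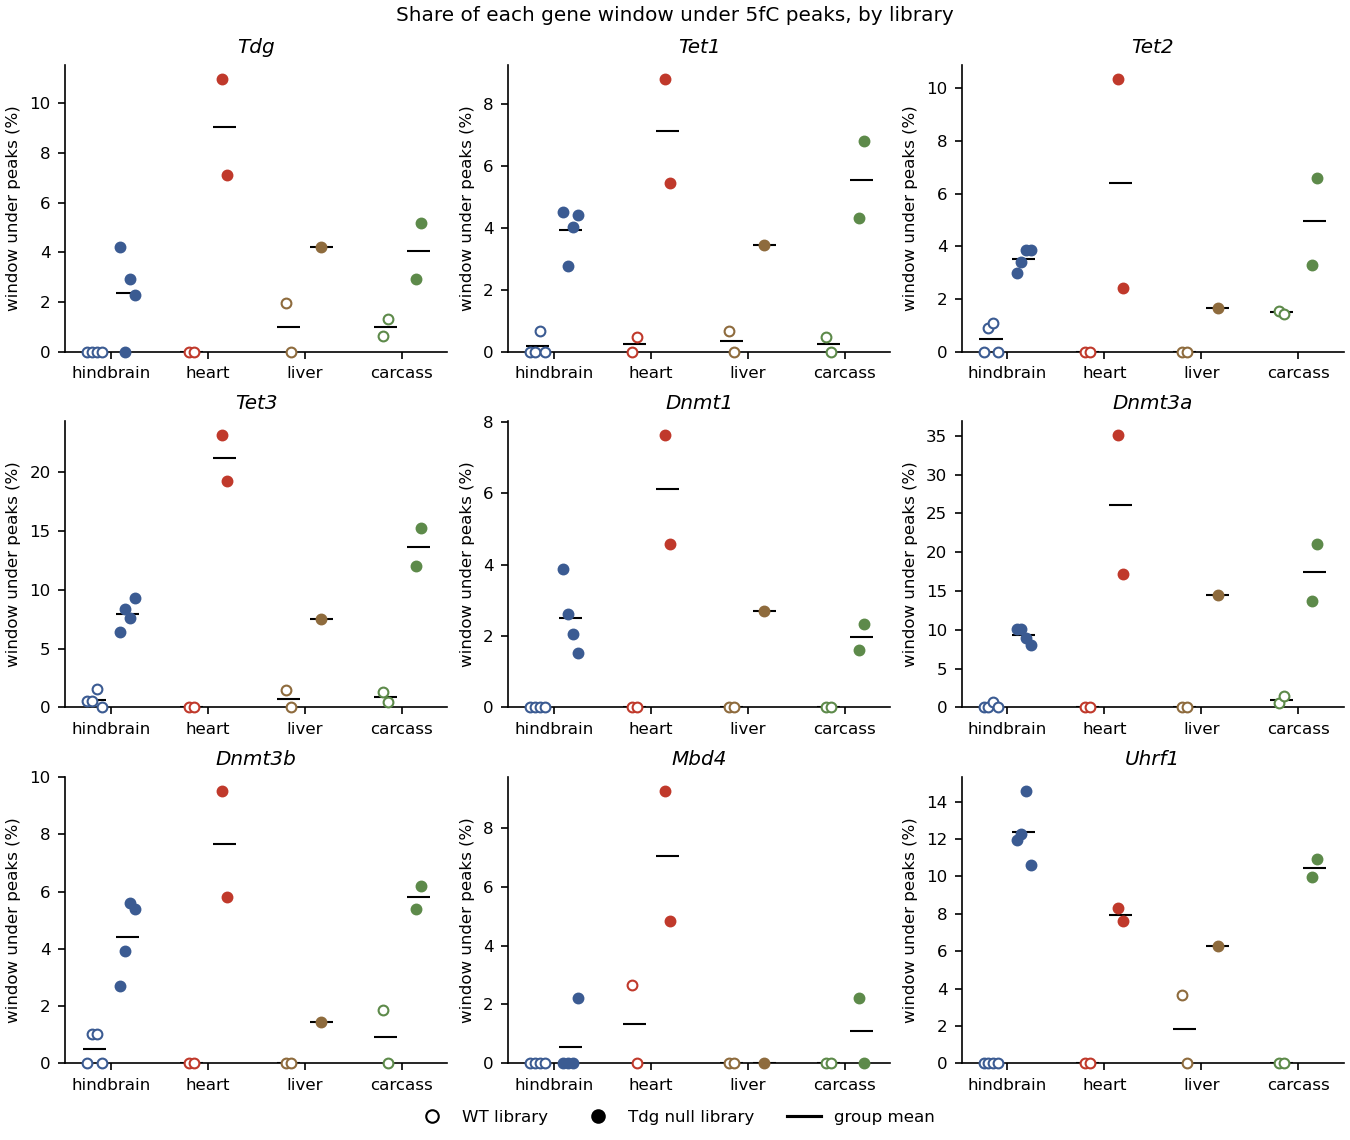
Percent of each gene window under 5fC peaks (vertical axis) in hindbrain, heart, liver and carcass, with open points for WT libraries, filled points for *Tdg* null libraries and a line at each group mean. The mean of the null hearts is highest for 8 of the genes, while for *Uhrf1* the 4 null hindbrains, between 10.6% and 14.6%, are above both null hearts; each panel has its own scale from 0.

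The genotype comparison asked whether these genes gained peaks when TDG was missing. In hindbrain, 7 of the 9 genes had every null library above every WT library, namely *Tet1*, *Tet2*, *Tet3*, *Dnmt1*, *Dnmt3a*, *Dnmt3b* and *Uhrf1*. Over all genes 45% met the same criterion, and over protein-coding genes 55%. The mean difference, null minus WT, was largest for *Uhrf1*, at 12.3 percentage points of the window (12.3% ± 1.65 SD in null against 0% in WT, n = 4 each), followed by *Dnmt3a* at 9.14 points and *Tet3* at 7.25 points. It was 3.88 points for *Dnmt3b*, 3.75 for *Tet1*, 3.03 for *Tet2* and 2.52 for *Dnmt1*. For each of the 7 the two-sided exact permutation test gave p = 0.0286, the smallest that 4 against 4 libraries allow, and an adjusted p = 0.0634 over all 37273 genes. This was the smallest adjusted p of any gene, so no gene of the annotation passed this test after correction. With limma on log2(percent + 0.1), all 8 genes with a peak in at least 2 hindbrain libraries passed, *Tdg* included, with adjusted p-values between 4.97e-09 for *Uhrf1* and 0.0191 for *Tdg*, as did 85.5% of the 23293 genes tested. *Tdg* differed by 2.34 points (exact permutation p = 0.143, higher in 3 of 4 litters), and *Mbd4* by 0.551 points (exact permutation p = 1, higher in 1 of 4 litters). Without the null hindbrain of litter O, which had no *Tdg* peak, *Tdg* also had every null library above every WT library, which made 8 genes.

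When all 6 litters were taken, using the mean over the tissues of each, these 7 genes were higher in the null embryo in 6 of 6 (exact permutation of the signs, two-sided p = 0.03125 each, adjusted p = 0.0701), a criterion that 44.5% of all genes met. Both values were the smallest that any gene had in this test, so no gene passed it after correction. The mean difference ranged from 2.92 points for *Dnmt1* to 12.6 points for *Dnmt3a*. *Tdg* was higher in 5 of 6 litters, by 3.34 points on average (exact permutation p = 0.0625), and *Mbd4* in 3 of 6, by 1.26 points (exact permutation p = 0.25). Counted by tissue and litter, null was above WT in 9 of 9 pairs for each of the 7 genes, in 8 of 9 for *Tdg* and in 4 of 9 for *Mbd4*. The exact permutation test could not pass within heart or carcass even before correction, since the smallest p for 2 against 2 libraries is 0.333, and liver had 1 null library. The p-values here measure the spread between single embryos.

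The difference between genotypes went together with the number of peaks in the whole library. Divided by the covered share of the genome in the same library, a ratio called relative coverage here, every null hindbrain remained above every WT hindbrain for 3 genes only, *Dnmt1*, *Dnmt3a* and *Uhrf1*, against 30.6% of all genes on this scale. For *Dnmt1* and *Uhrf1* no scaling could have changed this, since all 4 WT hindbrains were at 0%. On this scale *Tet2*, *Tet3* and *Dnmt3b* were lower in null than in WT hindbrain, with differences, null minus WT, of -0.773, -2.89 and -0.699. These WT ratios rest on few peaks, as *Tet3* had 4 peaks in the 4 WT hindbrains together, 1 of them in the library of litter A with a ratio of 14.6.

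Null tissues were compared by relative coverage, since their libraries differed in genome-wide coverage. The ratio need not be free of that coverage. The less covered null heart, of litter b, had the higher ratio for 8 of the 9 genes, and the least covered null hindbrain, of litter O, had the highest ratio of the 4 for *Uhrf1*, *Tet3*, *Dnmt3a* and *Tet2* but the lowest for *Tet1* and *Tdg*. In carcass the more covered library, of litter b, had the higher ratio for 5 of the 9. The part of this in the tissue differences was not tested. Hindbrain came from other litters than heart and carcass, so tissue and litter cannot be told apart in the comparisons with hindbrain. In the 4 null hindbrains *Uhrf1* was the highest of the 9 genes, at 3.73 ± 0.769 times the genome (SD), followed by *Dnmt3a* at 2.84 ± 0.680 and *Tet3* at 2.40 ± 0.580. Next were *Dnmt3b* at 1.32 ± 0.384, *Tet1* at 1.16 ± 0.0916, *Tet2* at 1.06 ± 0.185, *Dnmt1* at 0.763 ± 0.312 and *Tdg* at 0.652 ± 0.491, and *Mbd4* was last at 0.150 ± 0.300. Only between *Tet3* and *Dnmt3b* did the libraries of neighbours in this order not overlap. The median over all genes was 0.595 and over protein-coding genes 0.762. Of all genes, 94.8% were below *Uhrf1*, 89.2% below *Dnmt3a*, 85.0% below *Tet3* and 35.2% below *Mbd4*. All 4 null hindbrains were above 1, the level of the genome, for 4 of the 9 genes (*Tet1*, *Tet3*, *Dnmt3a* and *Uhrf1*), against 28.4% of all genes.

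**Figure D2:**
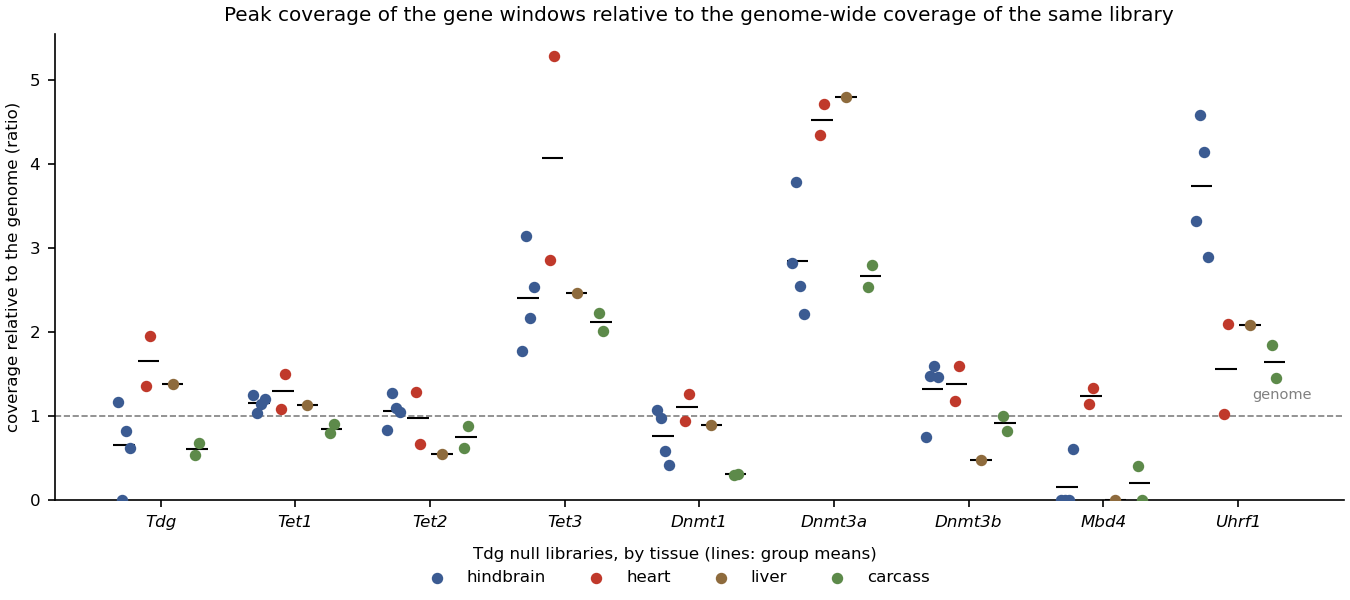
Coverage of each gene window by 5fC peaks divided by the genome-wide coverage of the same library (vertical axis, ratio) in the 9 *Tdg* null libraries, coloured by tissue, with lines at group means and the genome at 1. *Uhrf1* is higher in the 4 hindbrains, from 2.89 to 4.59, than in the other tissues, and *Dnmt3a* is higher in the 2 hearts and the liver, from 4.34 to 4.79, than in the other null libraries.

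Between null hindbrain and null heart, 2 of the 9 genes changed in a limma fit over the 27317 genes with a peak in at least 2 null libraries. *Uhrf1* was lower in heart, with a log2 difference of -1.07 ± 0.27 (SE, adjusted p = 0.0259). Its relative coverage was 3.32, 4.59, 4.14 and 2.89 in the null hindbrains against 1.02 and 2.09 in the hearts, so the groups did not overlap. *Mbd4* was higher in heart, by 1.51 ± 0.41 (adjusted p = 0.0344), with 0, 0, 0 and 0.601 in hindbrain against 1.14 and 1.33 in heart. These are differences of log2(relative coverage + 0.5), which understates the change of genes with low values. Over all genes tested, 17.1% were called higher in heart and 11.2% lower, with a median difference of 0.12. The 9 genes had 1 call in each direction, near that share. *Dnmt3a*, with 4.34 and 4.71 in heart and 2.21 to 3.79 in hindbrain, did not pass (0.61 ± 0.20, adjusted p = 0.0602), nor did *Tet3* (0.62 ± 0.27, adjusted p = 0.130) or *Tdg* (1.02 ± 0.47, adjusted p = 0.148). *Dnmt3a* passed without the null hindbrain of litter O (0.74, adjusted p = 0.0229), and *Tet3* without the null heart of litter a (1.02, adjusted p = 0.0439). At an unadjusted p under 0.05 there were 3 of the 9 genes, and 11331 of the 27317 genes tested. Both calls were lost when some single libraries were left out. Without the null heart of litter a, where the single remaining heart is assumed to vary like the other tissues, the *Uhrf1* difference was -0.69 (adjusted p = 0.117) and that of *Mbd4* 1.59 (adjusted p = 0.107). The *Uhrf1* call was also lost without the null hindbrain of litter O or Q (-0.98 and -1.02, adjusted p = 0.0543 and 0.0615), and the *Mbd4* call without the null hindbrain of litter A, O or Q (1.42 each, adjusted p between 0.0656 and 0.0769) or the null heart of litter b (1.43, adjusted p = 0.172). Over all fits that left out 1 library, the *Uhrf1* difference ranged from -1.46 to -0.69 and that of *Mbd4* from 1.42 to 1.80. With the gene body alone as the window the *Uhrf1* difference had an adjusted p = 0.147. Part of the *Uhrf1* coverage in all 4 null hindbrains lay over the neighbouring gene *Kdm4b*, in a stretch with no peak in null heart. Part of the *Mbd4* coverage in both null hearts lay over the neighbouring *Ift122*, in a stretch with no peak in hindbrain.

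Between null hindbrain and null carcass, and between null heart and null carcass, limma called none of the 9 genes. At an unadjusted p under 0.05 there was 1 gene in the first comparison, where 5918 of the 27317 genes tested were under it. This was *Uhrf1*, which was lower in carcass (log2 difference -0.97 ± 0.27, adjusted p = 0.0984). In the second there were 4, against 10456 of all genes tested, namely *Tet3*, *Dnmt1*, *Dnmt3a* and *Mbd4*, with lower values in carcass and adjusted p-values between 0.0627 and 0.127. Without the null hindbrain of litter Z, which shares the estimate of spread, *Mbd4* was called in the second comparison (adjusted p = 0.0314). Over all genes tested, 1.87% were called higher in carcass than in hindbrain and 2.92% lower, and 6.71% higher in carcass than in heart and 16.2% lower. *Dnmt1* was at 0.300 and 0.309 in the 2 null carcasses against 0.417 to 1.07 in hindbrain, 0.944 and 1.26 in heart and 0.889 in liver. The order of tissues differed between the genes. Carcass was below all other null libraries for *Tet1* and *Dnmt1*, liver was below all others for *Tet2* (0.545) and *Dnmt3b* (0.478), heart and liver were above all hindbrains and carcasses for *Tdg* and *Dnmt3a*, and hindbrain was above all others for *Uhrf1* alone. For *Tdg*, part of the heart and liver coverage lay over the neighbouring gene *Glt8d2*, in a stretch with no peak in hindbrain or carcass. For *Uhrf1*, part of the hindbrain coverage lay over *Kdm4b*, in a stretch seen in 1 null carcass and in no null heart or liver. With 1 null liver library, no test of liver was made.

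The peaks fell on the same places in different embryos. Joining overlapping or adjoining peaks of all 19 libraries gave 151 stretches in the 9 windows, 146 of them with a peak in a null library and 26 with a peak in a WT library. Of the 26 stretches with a WT peak, 21 also held a null peak, overlapping or adjoining, and 5 did not. At least 2 null replicates of a tissue shared 93 stretches, and 41 were seen in a single null library. Peaks of 7 or more null libraries lay in 25 stretches, though not always all over a shared base. Of these, 9 were in *Dnmt3a*, 4 each in *Tet2* and *Tet3*, 2 each in *Tet1*, *Dnmt3b* and *Uhrf1*, and 1 each in *Tdg* and *Dnmt1*. *Mbd4* had none, and no *Mbd4* stretch was in more than 2 null libraries. A single base lay under peaks of all 9 null libraries in 7 stretches, 2 in *Dnmt3a*, 2 in *Tet3* and 1 each in *Tet1*, *Dnmt1* and *Uhrf1*.

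**Figure D3:**
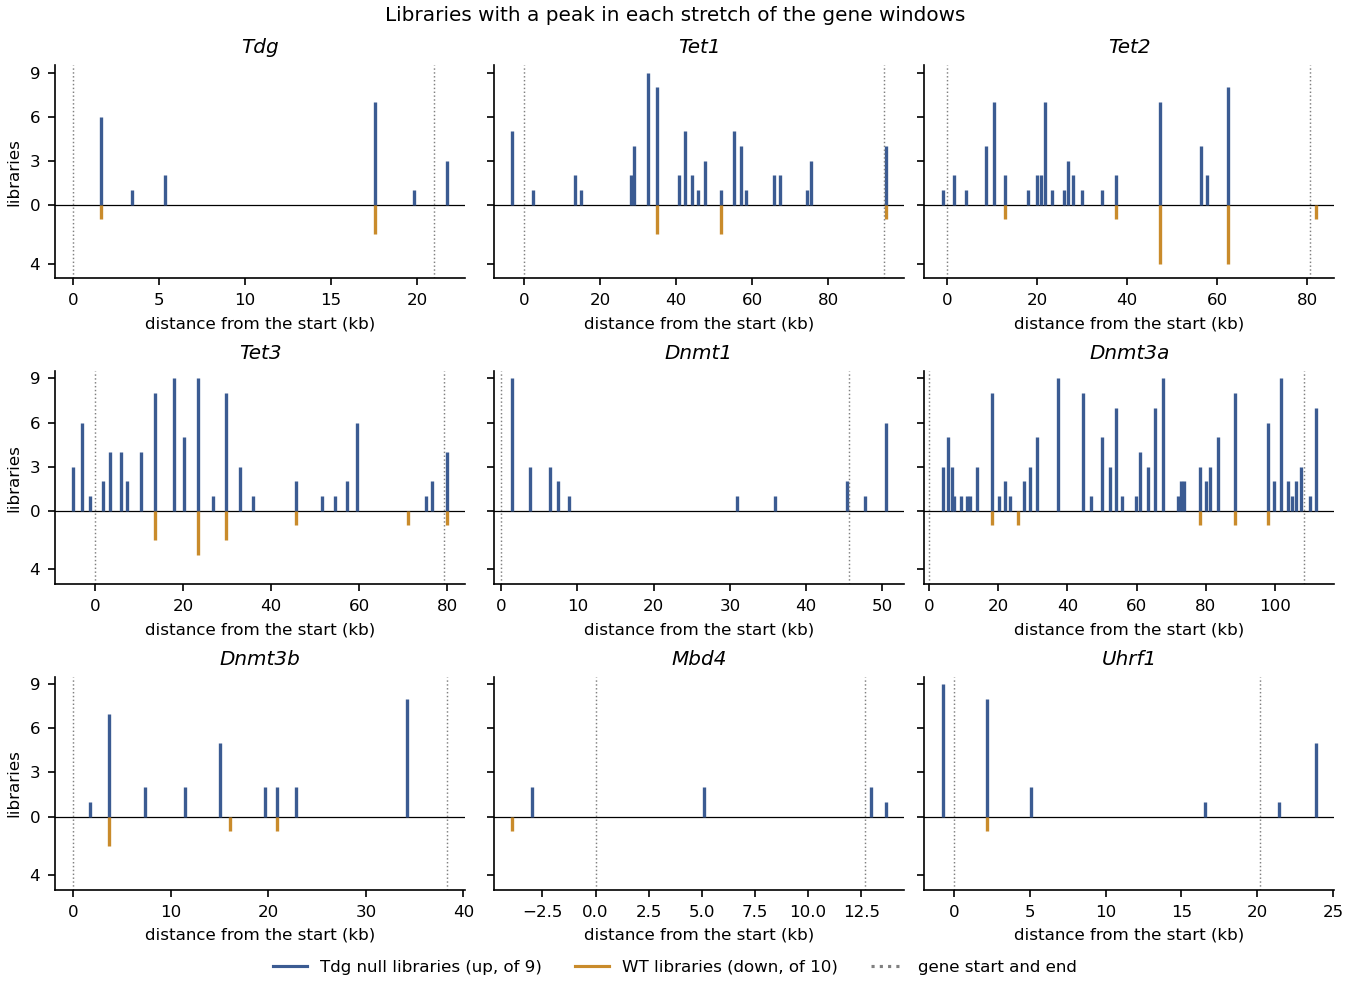
Number of libraries with a peak in each stretch of the 9 windows (vertical axis), with null libraries of 9 drawn upward and WT libraries of 10 downward, against the distance of the stretch centre from the gene start in kb; dotted lines mark the start and end of the gene. *Tet1*, *Tet3*, *Dnmt1*, *Dnmt3a* and *Uhrf1* have stretches that reach 9 null libraries, and WT bars reach at most 4, at *Tet2*.

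The 9-library stretch of *Dnmt1* lay in an intron near the start, and it was the only *Dnmt1* stretch in more than 6 null libraries. *Uhrf1* had 2 such places on either side of its start. The first, chr17:56441401-56442600, ended 144 bp before the start and was in 9 of 9 null libraries and in no WT library. The second, chr17:56444001-56445900, was in 8 null libraries, missing only from liver, and in the WT liver of litter a. A further *Uhrf1* stretch at chr17:56466101-56467100, seen in all 4 null hindbrains and 1 null carcass, lies inside the next gene, *Kdm4b*, near its start, and had no peak in either null heart. *Tdg* had 4 stretches shared by at least 2 null replicates of a tissue. The widest shared were chr10:82093701-82094700 in an intron, in 6 null libraries, and chr10:82109701-82110600 over a coding exon, in 7. The other 2 were chr10:82097701-82098100, in both null hearts alone, and chr10:82113901-82114700, in both null hearts and null liver, which lies inside the neighbouring gene *Glt8d2*. Each of the 2 widest shared was also under a WT peak, in the carcass of litter b for the first and in the carcass and liver of litter a for the second.

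**Figure D4:**
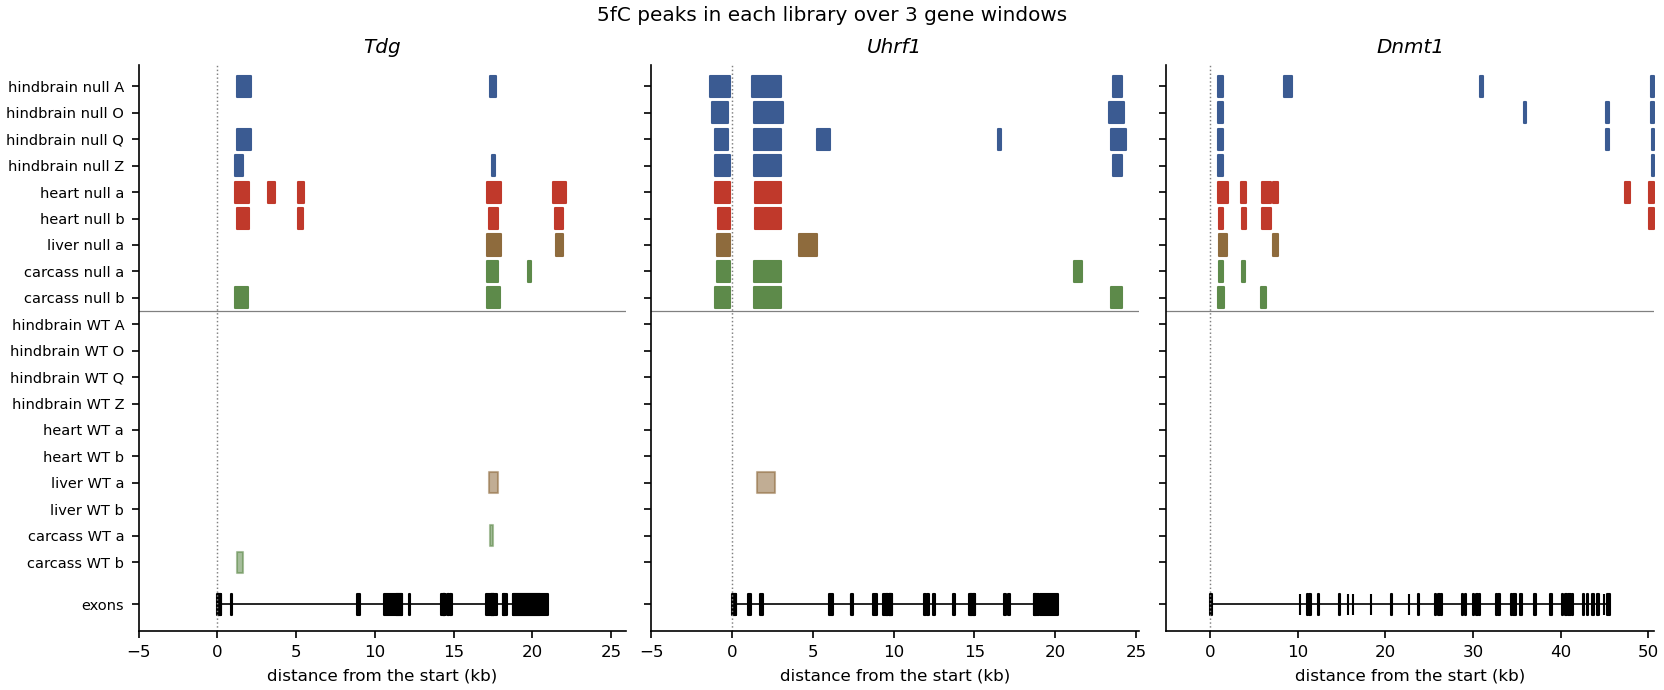
Peaks in each of the 19 libraries (rows, null above the line and WT below, coloured by tissue) over the *Tdg*, *Uhrf1* and *Dnmt1* windows, against distance from the gene start in kb in the direction of transcription, with exons in black. The *Uhrf1* block before the start and the *Dnmt1* block just after it are in 9 of 9 null rows, and the *Dnmt1* panel has no WT peak.

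In *Tet1* the 9-library stretch was chr10:62328401-62329900, an intronic stretch 32.7 kb from the start with no WT peak, and its neighbour at chr10:62326401-62327300 was in 8 null and 2 WT libraries. A further *Tet1* stretch at chr10:62332601-62333300 was in the 4 null hindbrains and in no other library. *Tet2* had a stretch of the same kind, chr3:133150601-133151100, over a coding exon. Its most shared stretch, chr3:133144501-133145200, was in 8 null and 4 WT libraries, 2 hindbrains and 2 carcasses. *Tet3* had 2 intronic 9-library stretches, chr6:83367501-83369100 and chr6:83372701-83374500. The first was also in 3 of 4 WT hindbrains (litters A, O and Q) and in no other WT library, while the second was in none. A *Tet3* stretch upstream of the start, chr6:83393501-83395400, was in 6 null libraries and lies over the neighbouring *B230319C09Rik*. These stretches were picked out after their values were seen and were not tested.

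*Dnmt3a* had its stretches with a base under peaks of all 9 null libraries in an intron and, at chr12:3907301-3908100, over a coding exon, both with no WT peak. A further stretch over a coding exon, chr12:3872401-3875000, also had peaks of 9 null libraries and no WT peak. At most 8 of the 9 met there at a single base. The *Dnmt3a* peaks were spread along the gene, with 45 stretches in all. Of these, 19 were in at least 2 null libraries and in no null hindbrain, and 0 were in 2 or more null hindbrains and nowhere else in null tissue. Over all 9 genes, 50 stretches were in at least 2 null libraries but in no null hindbrain, and 8 were in at least 2 null hindbrains but in no other null library, 3 of these in *Dnmt3b* and 2 in *Tet2*. The most shared *Dnmt3b* stretch, chr2:153508801-153510000, covered a coding exon and was in all null libraries except liver, with no WT peak. Hindbrain libraries had fewer peaks in these windows (39 to 47) than heart (72 and 106) or carcass (53 and 73), and the part of this in the counts of stretches was not tested.

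**Figure D5:**
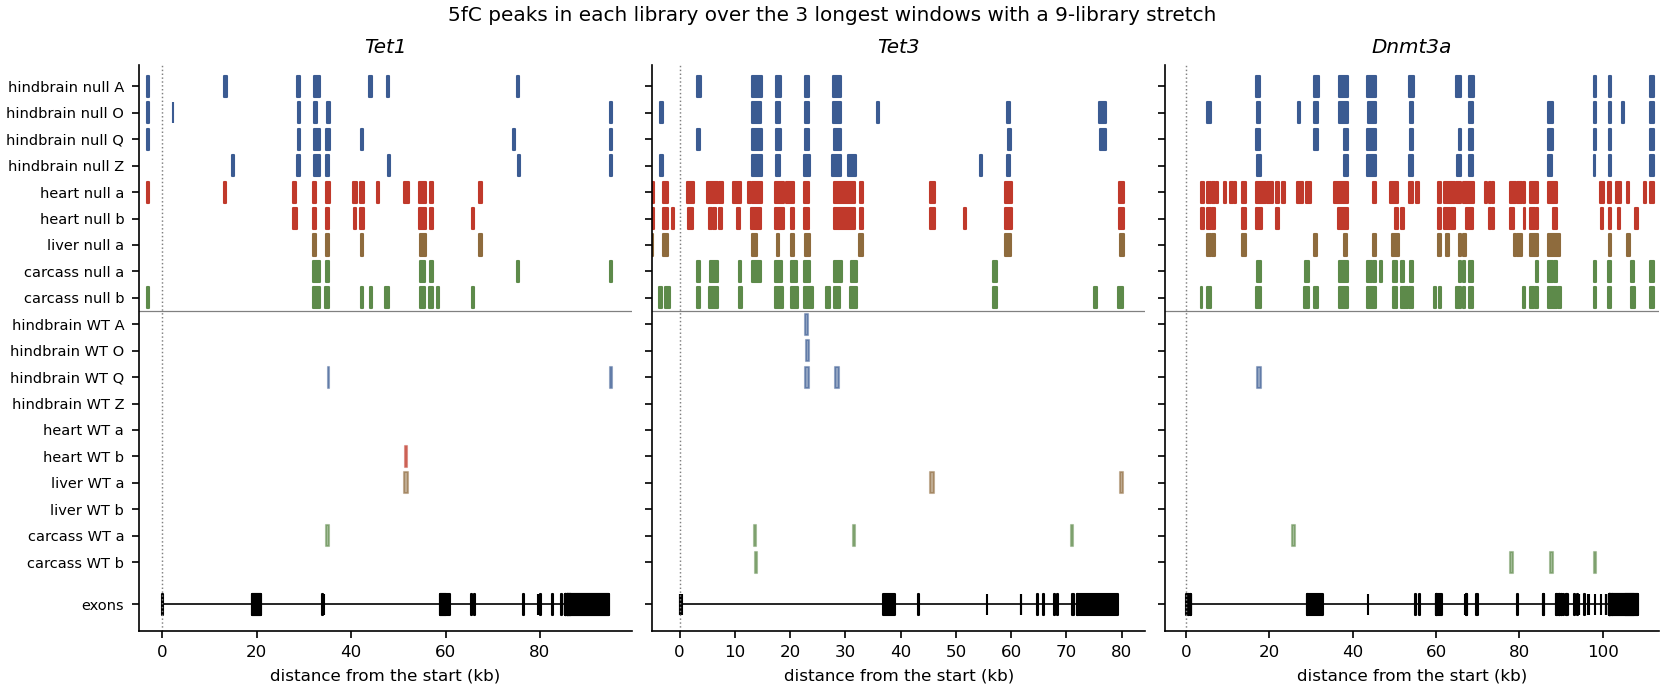
Peaks in each of the 19 libraries (rows, null above the line and WT below, coloured by tissue) over the *Tet1*, *Tet3* and *Dnmt3a* windows, against distance from the gene start in kb in the direction of transcription, with exons in black. The vertical alignment of blocks shows peaks at the same place in different embryos, and the *Tet3* block at 23.4 kb is also present in 3 WT hindbrains.

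The gene starts were mostly free of peaks. Within 500 bp of the start a null library had a peak at *Uhrf1* alone, in 9 of 9 null libraries, and at none of the other 8 genes. Of all genes, 30.4% had such a peak in at least 1 null library and 1.29% in all 9. Within 1000 bp there were 3 more genes, *Dnmt1* with 6 null libraries and *Tet2* and *Tet3* with 1 each. No WT library had a peak within 1000 bp of any of the 9 starts. The 9 genes had 10 CpG islands over annotated starts of coding transcripts, islands being runs of sequence rich in G, C and CpG where methylation is usually low. In null hindbrain, peaks covered 1.17% ± 0.519 (SD, n = 4) of these islands and 11.3% ± 0.481 of the 2 kb on each side, the shores. Over the 14326 start islands of all genes, the values were 2.71% ± 0.517 and 6.58% ± 0.494. Inside the islands, null peaks were present at *Uhrf1*, in 6 null libraries, and at *Tet2*, in 1. The shores of *Uhrf1* stood out, with 44.4% of the side before the island and 72.1% of the side after it covered on average over the 9 null libraries. On the shore sides of the other islands this average lay between 0% and 34.6%. The shore means of the 9 genes include *Uhrf1* and were not computed without it. With longer and richer islands the members' 8 islands were covered to 2.55% ± 0.564 and their shores to 11.6% ± 1.02, against 2.61% and 6.73% over all 11661 such islands.

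Within the windows, introns were covered more than exons in 8 of 9 null libraries. Exons of the 9 genes were under peaks to 3.64% ± 1.34 in null hindbrain and introns to 6.27% ± 0.391 (SD, n = 4). In null hearts exons were at 9.11% and 5.38% and introns at 19.3% and 11.2%, and in null liver both were alike, at 6.33% and 6.24%. Over all protein-coding genes the order in null hindbrain was the other way, with 4.45% to 6.02% of exons and 3.48% to 4.71% of introns covered. It was also the other way in both null hearts, with 14.0% and 7.13% of exons and 12.1% and 5.79% of introns. In the null carcasses introns were slightly more covered than exons over all protein-coding genes too, at 7.29% against 7.10% and 10.1% against 9.55%, and in null liver exons were at 4.41% and introns at 4.39%. *Tet1* had almost no exonic coverage, 0.0113% of its exon bases over the 9 null libraries against 5.86% of its introns, whereas *Tdg* had 8.13% of exons and 4.75% of introns covered and *Dnmt3a* 15.0% and 16.3%.

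The bases covered in most null libraries held more CpGs than the rest. Over the 9 windows, 17.8 kb under peaks of 7 to 9 null libraries had 18.2 CpGs per kb, 75.6 kb under peaks of 2 to 6 null libraries had 14.6, 46.5 kb under peaks of 1 null library had 12.9 and 451 kb under none had 13.3, so bases seen in a single library were no richer than those in none. In the same order the values in *Tet1* were 18.3, 15.4, 14.3 and 10.8, in *Tet2* 17.3, 12.5, 11.3 and 8.94, and in *Tet3*, where they scarcely differed, 14.7, 14.4, 14.7 and 14.1. *Uhrf1* went the other way, with 19.2 under 7 to 9 libraries and 21.8 under none, where its start island lies. The windows as a whole held from 9.49 CpGs per kb in *Tet2* to 20.3 in *Uhrf1*, against a median of 10.5 over all gene windows, and *Tet2* alone was below that median. The part of CpG density in the pull-down was not tested.

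Genes that work beside these enzymes were described with 3 lists. Of 16 base excision repair genes, 9 had every null hindbrain above every WT hindbrain, of 14 partners and readers of methylation 10, and of 14 genes for TET cofactors and 5-methylcytosine deamination 12, against the 45% of all genes and 55% of protein-coding genes given above. In null hindbrain the median relative coverage was 1.05, 0.926 and 1.55 in the 3 lists and 1.16 over the 9 enzymes. Among the most covered repair genes were *Smug1*, coding for a uracil glycosylase, at 3.44 ± 0.431 times the genome, and *Ung*, coding for another, at 2.83 ± 1.24. *Lig3*, a DNA ligase, and *Fen1*, a flap endonuclease, had no peak in any null hindbrain. Among partners and readers *Zbtb38* (3.36 ± 0.436), *Zbtb4* (1.80 ± 0.618) and *Trdmt1* (1.54 ± 0.480) were highest, and *Zbtb33* and *Pcna*, coding for the replication clamp, were at 0. Among cofactors and deaminases *Apobec2* (3.63 ± 1.26), *Cxxc5* (3.14 ± 0.163) and *Gadd45g* (2.98 ± 1.62) were highest and *Ogt* (0.465 ± 0.212) lowest.

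Tissue differences were larger in some of these genes than in the 9 enzymes. Between null heart and null hindbrain limma called 3 of 16 repair genes higher in heart, *Lig3*, *Ogg1* and *Parp1*, and 1 lower, *Smug1*, near the 17.1% higher and 11.2% lower over all genes tested. *Smug1* was at 3.44 in hindbrain and 0 in both hearts (log2 difference -2.97 ± 0.17, adjusted p = 0.000362), the reverse of *Lig3*, at 0 in hindbrain and 2.12 in heart (2.31 ± 0.29 higher, adjusted p = 0.00195). Of the partners and readers, *Zbtb38*, *Zbtb4* and *Pcna* were higher in heart and *Dppa3* lower. Of the cofactors and deaminases, *Apobec2*, *Cxxc5* and *Idh2* were higher, *Cxxc5* by 1.30 ± 0.19 (adjusted p = 0.00381), and *Gadd45b* and *Apobec3* lower, *Gadd45b* with a log2 difference of -2.58 ± 0.33 and no peak in heart (adjusted p = 0.00219). Between carcass and hindbrain *Cxxc5* was higher in carcass and *Gadd45b* lower. Between carcass and heart, the repair genes *Parp1*, *Ung*, *Ogg1*, *Lig3* and *Neil2*, the reader gene *Zbtb4* and *Idh2* were lower in carcass, and *Smug1* and *Dppa3* were higher. The comparisons share the null heart, hindbrain and carcass libraries and are not independent of each other.

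For each of the 9 genes the protein-coding gene with the most similar profile over the 9 null libraries was found, at least 1 Mb away, by Pearson's r of log2(relative coverage + 0.5). It was *Fbxo40* for *Tdg* (r = 0.978), *Stub1* for *Tet1* (0.961), *Fxc1* for *Tet2* (0.957), *Suds3* for *Tet3* (0.965), *Ankrd12* for *Dnmt1* (0.983), *Dctn4* for *Dnmt3a* (0.975), *9030624J02Rik* for *Dnmt3b* (0.963), *Med19* for *Mbd4* (0.997) and *Car11* for *Uhrf1* (0.962). Each is the highest of very many values of r from these 9 libraries, so such values are a description with no test. None of these genes is in the lists above.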

How the data were processed

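5fC pull-down and sequencing were done by the authors, who per the study's methods trimmed reads with trim_galore, aligned them to NCBIM37 with Bowtie2, converted the alignments with samtools and ran SeqMonk's MACS tool for peaks, with the control library not given in the sources used here. The deposited files are BED lists of peak positions on a 100 bp grid, with no score or signal, and their coordinates are the only values used. Peaks of a library were merged, and the percent of each window, the number of peaks and the relative coverage (percent of the window over percent of the ungapped genome) were computed for all 37273 genes of GENCODE M1. Genotypes were compared in hindbrain by an exact permutation test of the mean percent, and over 6 litters by exact sign flips. Tissues were compared with limma 3.58.1 in R 4.3.3 on log2(relative coverage + 0.5) over the null libraries, for genes with a peak in at least 2 of them. P-values were adjusted by Benjamini-Hochberg over all genes tested, with a threshold of 0.05. CpG islands were at least 200 bp long, with at least 50% GC and an observed over expected CpG ratio of 0.6. The scripts were tested on simulated data. The members were given by name, and the gene lists, tests and named stretches were chosen with earlier results of these data known. Named genes were all 9 members and, per list, the 3 most and 2 least covered in null hindbrain with any list gene that limma called. Some list genes and sequences that these rules pick are not reported here. WT and null hindbrain libraries are paired by litter per the labels, and deviations of libraries of one litter correlated at -0.0244, 0.0355, 0.0423 and -0.00595 over genes. No promoter sequence was used, since the promoter table at hand is of another build.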

Additional observations from a re-analysis of the deposited data

Results flagged for a closer look

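Of 14 groups of 4 hindbrain libraries with any peak, 3 had one library far from the others. In each of the 3 only that library had a peak, and any such group meets the criterion, so the rate of about 1 in 20 groups that chance gives for measured values cannot be applied. *Mbd4* was at 2.21% in the null hindbrain of litter Z and at 0% in the other 3. *Tet1* was at 0.670% and *Dnmt3a* at 0.760% in the WT hindbrain of litter Q, with the other 3 WT hindbrains at 0%. The library of litter Q had 8 peaks in the 9 windows, more than the other WT hindbrains. The cause was not tested.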

How the results depend on the processing

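Of the 9 genes, 7 had every null hindbrain above every WT hindbrain, and this was also 7 with the replicate block of litters, 8 with limma, and 3 with relative coverage. By relative coverage the hindbrain difference turned to -0.773 for *Tet2*, -2.89 for *Tet3* and -0.699 for *Dnmt3b*, and over litters 2 genes in place of 7 had a difference of one sign, with *Tet2* at -0.492, *Tet3* at -1.28, *Dnmt3b* at -0.228 and *Mbd4* at -0.809. Between null heart and hindbrain limma called 1 gene in place of 2 with the gene body alone, with a pseudocount of 0.1 or with no filter. The genes called also changed: over 17 settings *Mbd4* lost its call in 8 and *Uhrf1* in 4, while *Dnmt3a* and *Tet3* gained one in 2 each. It called 1 in place of 0 between carcass and hindbrain with 10 kb flanks, and between carcass and heart with the gene body alone or with peaks of at least 600 bp. Leaving out one library gave 7 to 8 genes in hindbrain, leaving out one litter 7 to 8 over litters, and leaving out one library 0 to 2 between heart and hindbrain, 0 to 0 between carcass and hindbrain and 0 to 1 between carcass and heart. Genes with a null peak near the start went from 1 to 4 within 1000 bp, coverage of start islands from 1.17% to 2.55% with stricter islands, and pathway genes with separated hindbrain groups from 31 to 17 with peaks of at least 600 bp. The pathway lists under other settings, protein-coding genes as background, and litters without liver were added after seeing the data. Peaks have no height or depth, so no limit of detection can be given for a value of 0%.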
